A study of Mus musculus with 10 samples.

Results

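Tlcd1, its paralog Tlcd2 and the ceramide synthase genes Cers1, Cers2, Cers4, Cers5 and Cers6 were followed across 10 Affymetrix arrays of mouse cortical cells sorted as astrocytes. All of these genes encode membrane proteins with a TLC domain. A gene was taken from a probe set whose platform annotation gives its symbol and no other, and where several qualified, from the one with the highest mean over the 10 arrays. By this rule 6 of the 7 listed genes were measured, out of 22180 genes with such a probe set. Cers1 had none, because its probe set is annotated to Gdf1 as well. The genes were chosen by their measured difference between the groups, in which Tlcd1 stood out, so the members' differences below are descriptions and carry no test.

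The study compared 5 arrays labelled FMR1-KO with 5 arrays labelled wild-type Control. Both groups were of cells from mice aged 8 weeks, sorted by FACS on an EGFP reporter in astrocytes, and the labels give no promoter for the reporter, no strain, no sex and no pooling of animals. Titles call the replicates biological without saying that each came from its own animal, so the spread between arrays may be in part technical. Fmr1 itself read 8.32, 8.38, 8.26, 8.15 and 8.01 on KO-labelled arrays 1 to 5, against 8.28, 7.60, 8.03, 8.17 and 8.10 on Control arrays 1 to 5, all as log2 signal. Its signal was thus not lower in the KO-labelled group, which is called so throughout. Neither the disrupted part of the gene nor the bases read by its probes are stated in the labels.

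Control array 1 and KO-labelled arrays 1 and 2 stood apart from the other 7 on the first principal component, and the group difference of each member and named pathway gene is given with and without them. The mean of 20 astrocyte markers ran from 9.84 to 10.8 on the KO-labelled arrays and from 9.65 to 10.4 on the Control arrays. The mean of 19 measured microglia markers was 9.28 to 10.7 on the KO-labelled and 10.0 to 11.0 on the Control arrays, and its lowest values lay on those same 3 arrays. Xist, a sex-linked gene, read 10.6 and 11.0 on Control arrays 2 and 3 and 4.98 to 5.23 elsewhere, all KO-labelled arrays included. The part of sex in the group differences was not tested. In bulk material, fewer cells of a type and less RNA per cell cannot be told apart.

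As background, ceramide synthases sit in the endoplasmic reticulum and join a fatty acyl-CoA to a sphingoid base, which makes dihydroceramide, the precursor of ceramide, sphingomyelin and the glycolipids of myelin and neuronal membranes. Each enzyme prefers certain acyl chain lengths. Cers2 uses very long chains and Cers1 and Cers4 somewhat shorter ones, while Cers5 and Cers6 favour palmitoyl chains. TLCD1 and TLCD2 share the fold but are not established as ceramide synthases. In human cells and in the worm they limit how much polyunsaturated fatty acid enters membrane phospholipids, and with it membrane fluidity.

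RefSeq promoter windows on GRCm38.p6, which span 250 bases before to 50 bases after an annotated start, were found for all 7 genes. Those of Tlcd1 are shown because its level, as read by its brightest probe set, differs most between the groups among the members. A second probe set of Tlcd1, given below, differs less. The windows of Cers4 and Cers6 are shown because these were the ceramide synthases with the widest spread between arrays. Capitals mark matches, on either strand, to the GC box GGGCGG or to CCAAT.
Tlcd1, first start, chr11:78177880-78178179, plus strand: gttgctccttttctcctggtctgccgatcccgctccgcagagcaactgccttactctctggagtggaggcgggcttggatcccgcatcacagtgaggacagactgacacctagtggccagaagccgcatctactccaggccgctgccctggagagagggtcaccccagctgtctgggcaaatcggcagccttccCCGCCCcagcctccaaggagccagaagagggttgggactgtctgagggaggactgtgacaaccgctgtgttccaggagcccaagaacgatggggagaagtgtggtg
Tlcd1, second start, chr11:78178408-78178707, plus strand: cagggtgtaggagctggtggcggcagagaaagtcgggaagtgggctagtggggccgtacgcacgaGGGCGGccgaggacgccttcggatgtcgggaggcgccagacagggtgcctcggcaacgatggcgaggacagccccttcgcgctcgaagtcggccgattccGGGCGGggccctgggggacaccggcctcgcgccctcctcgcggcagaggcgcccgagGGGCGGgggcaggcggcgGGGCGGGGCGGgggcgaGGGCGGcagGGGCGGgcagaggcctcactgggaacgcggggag
Cers4, chr8:4493155-4493454, plus strand: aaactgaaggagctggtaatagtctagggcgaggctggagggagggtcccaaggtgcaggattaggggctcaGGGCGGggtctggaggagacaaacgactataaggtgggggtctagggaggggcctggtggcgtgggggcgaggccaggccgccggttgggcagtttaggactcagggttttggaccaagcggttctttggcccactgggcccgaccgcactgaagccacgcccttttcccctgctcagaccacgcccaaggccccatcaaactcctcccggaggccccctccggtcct
Cers6, chr2:68861191-68861490, plus strand: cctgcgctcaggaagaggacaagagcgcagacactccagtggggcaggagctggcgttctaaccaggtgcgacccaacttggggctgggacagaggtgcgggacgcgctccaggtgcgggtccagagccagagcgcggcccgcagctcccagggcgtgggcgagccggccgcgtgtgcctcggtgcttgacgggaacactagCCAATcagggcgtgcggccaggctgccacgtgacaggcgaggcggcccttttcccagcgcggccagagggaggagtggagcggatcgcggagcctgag
The second Tlcd1 window held 7 GC boxes, a pair of which overlap, and had a GC content of 76.0%, against 1 GC box and 61.7% in the first. Over all 32851 windows, 35.7% held a GC box, 37.4% held CCAAT, and the median GC content was 52.7%. Cers4 had 1 GC box and Cers6 had 1 CCAAT. The TATA box TATAAA, the nuclear factor I palindrome and the sterol element TCACNCCAC were also searched on both strands and occurred in none of the members' windows, against 13.6%, 0.0365% and 1.24% of all windows in that order. These matches describe the letters only.

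The brightest probe set annotated to Tlcd1 read higher on the KO-labelled arrays. A second set annotated to Tlcd1 alone, described below, differed by only 0.45 ± 0.25 (SE), and which set reports the Tlcd1 mRNA was not tested. The log2 level was 9.71, 9.03, 10.92, 10.31 and 10.84 on KO-labelled arrays 1 to 5, against 9.95, 8.97, 8.57, 7.96 and 9.02 on Control arrays 1 to 5. The groups overlapped, because KO-labelled arrays 1 and 2 read below Control array 1. All 5 KO-labelled arrays lay above the Control mean. The means were 10.16 ± 0.80 in the KO-labelled group and 8.89 ± 0.73 in the Control group (SD, n = 5 each), and the difference was 1.27 ± 0.40 on the log2 scale (SE from limma), a ratio of 2.41. The 95% interval ran from 0.40 to 2.14. Because this difference chose the gene, the interval does not hold its stated coverage and serves as no test. Without Control array 1 and KO-labelled arrays 1 and 2, the levels were 10.69 ± 0.33 (SD, n = 3) against 8.63 ± 0.49 (SD, n = 4), and the difference was 2.06 ± 0.23 (SE).

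These are the values that singled the gene out. Over all 10 arrays, where 46.8% of genes had a higher and 53.2% a lower KO-labelled mean, no gene passed the threshold, a Benjamini-Hochberg adjusted p under 0.05 in limma, in either direction (0% of 17712 genes each way). At an unadjusted p under 0.05, 4% of genes were higher and 3.53% lower. At that level the fit without those 3 arrays gave 3.34% higher and 5.57% lower. In that fit no gene was lower past the adjusted threshold, and 1 gene was higher, which is 0.00565% of those tested. This was Tlcd1 as read by its brightest probe set alone, and the second set was not in that fit. Its groups no longer overlapped there, as for 3.99% of genes in that direction and 5.28% in the other. Since that contrast chose the gene, nothing further is read from the count.

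**Figure D1:**
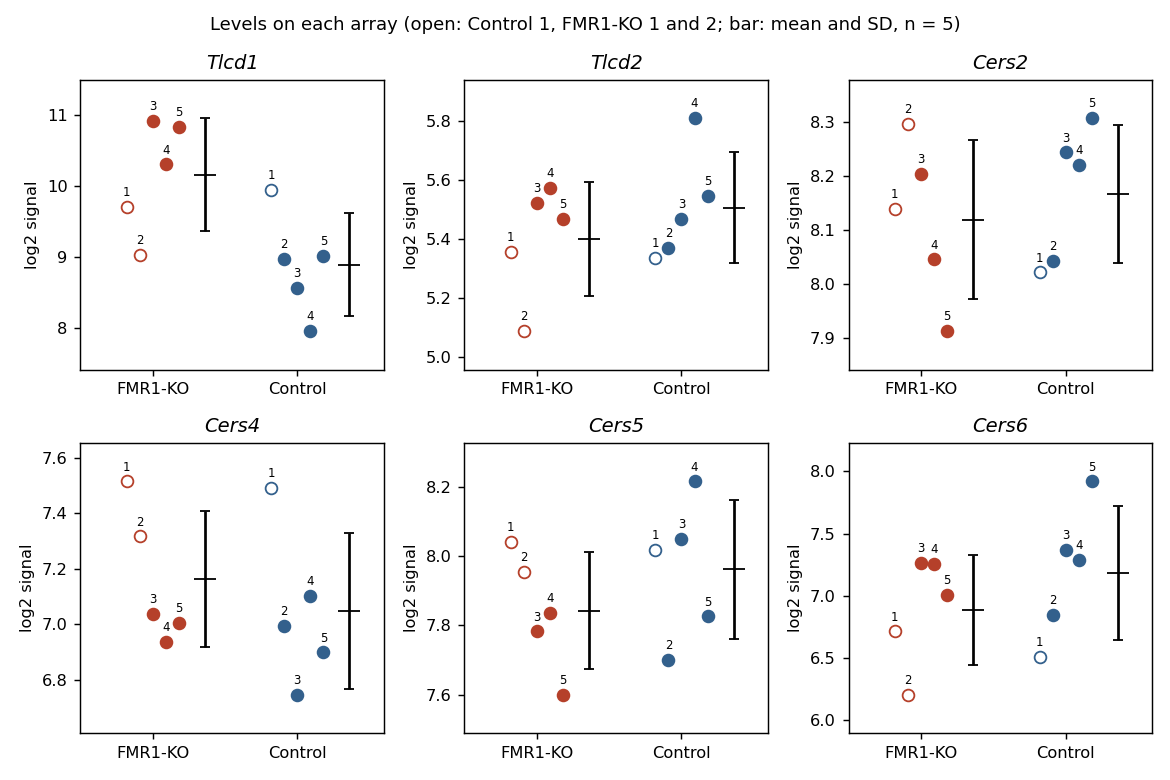
Log2 signal of the 6 measured genes on each array, with KO-labelled arrays on the left and Control arrays on the right of each panel. Numbers are replicate numbers, open circles are Control array 1 and KO-labelled arrays 1 and 2, and bars are the mean and SD of 5 arrays. Tlcd1, shown by its brightest probe set, spans 2.97 log2 units between its lowest and highest array, against 0.39 for Cers2.

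A second probe set is annotated to Tlcd1 alone, and it gave another picture. The rule set it aside by a small margin, as the means over 10 arrays were 9.53 for the brightest set and 9.49 for the second. It read 10.07, 10.49, 9.24, 9.42 and 9.36 on KO-labelled arrays 1 to 5, against 9.77, 9.20, 9.22, 9.30 and 8.82 on Control arrays 1 to 5. KO-labelled arrays 1 and 2 and Control array 1 were now the highest of all, and KO-labelled arrays 3 to 5 lay among or just above the remaining Control arrays. The means were 9.72 ± 0.54 in the KO-labelled and 9.26 ± 0.34 in the Control group (SD, n = 5 each), with a difference of 0.45 ± 0.25 (SE). Without the 3 arrays the difference was 0.21 ± 0.12 (SE), against 2.06 for the brightest set on the same arrays.

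A joint probe set, annotated to both Snord4a and Tlcd1, is assigned here to neither gene. It read 6.68, 7.44, 5.95, 5.90 and 6.01 on the KO-labelled arrays and 6.12, 6.28, 5.98, 6.15 and 5.61 on the Control arrays. Its highest readings were on KO-labelled arrays 1 and 2. To compare shapes, each profile was centred on its own mean and the root mean square difference per array was taken. The joint set differed from the second Tlcd1 set by 0.21 log2 units over the 10 arrays, and from the brightest set by 1.13. The second and the brightest set differed from each other by 1.02.

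**Figure D2:**
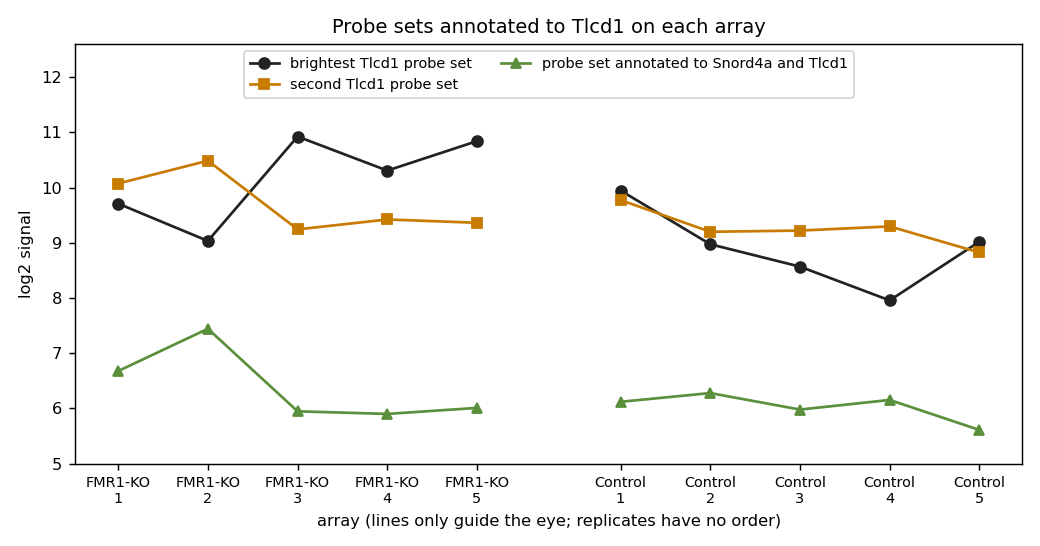
Log2 signal of the probe sets annotated to Tlcd1, alone or with Snord4a, on the KO-labelled arrays (left) and the Control arrays (right). The brightest set is highest on KO-labelled arrays 3 to 5, between 10.31 and 10.92, where the second set reads 9.24 to 9.42.

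The neighbours of Tlcd1 on chromosome 11 were read in the same arrays. By gene order in RefSeq, Nek8 and Traf4 lie on one side, and the microRNA gene Mir7653 and Rpl23a on the other. Both Mir7653 and Rpl23a overlap Tlcd1. The small nucleolar RNA genes Snord42a, Snord4a and Snord42b lie within Rpl23a. Such RNAs are cut from introns of a host gene and guide modification of ribosomal RNA. Rpl23a, a ribosomal protein gene with near-identical copies and therefore uncertain, differed by -0.09 ± 0.09 (SE), Nek8 by 0.29 ± 0.10, Traf4 by 0.28 ± 0.16 and Snord42b by 0.26 ± 0.14, from a fit over all probe sets. Without the 3 arrays the differences were -0.15 ± 0.12, 0.16 ± 0.08, 0.20 ± 0.08 and 0.42 ± 0.15. All 4 were smaller than the 1.27 and 2.06 of the brightest Tlcd1 set. No probe set carried the symbol Snord42a or Mir7653. Probe sets annotated to Rpl23a jointly with other symbols differed by -0.16 ± 0.09, -0.19 ± 0.09 and -0.24 ± 0.12 (SE). Without the 3 arrays they differed by -0.20 ± 0.12, -0.25 ± 0.12 and -0.22 ± 0.12. Which copy of Rpl23a any of its sets reads was not analysed.

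Among all 17712 genes tested, those whose profile lay nearest to the brightest Tlcd1 set were mostly small RNA genes. Small RNA genes here include both small nucleolar RNAs and microRNAs. By root mean square difference over the 10 arrays, 4 of the nearest 5 and 15 of the nearest 20 genes were small RNA genes. That class makes up 1.86% of the genes tested. The SD of the brightest set lay at the 99.5 percentile of all genes tested in the KO-labelled group and at the 99.7 percentile in the Control group. Only genes that vary widely can lie near such a profile, and the share of small RNA genes among those was not counted. The nearest 5 were Snord70 at 0.46, Snord47 at 0.50, Snord111 at 0.53, Snord58b at 0.54 and the olfactory receptor gene Olfr1502 at 0.56 log2 units, named after their values were seen. For scale, a flat profile lay at 0.93. Over the 7 arrays without Control array 1 and KO-labelled arrays 1 and 2, Snord47 was nearest at 0.47, and 4 of 5 and 13 of 20 were again small RNA genes.

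Snord70 read 6.35, 5.56, 7.07, 6.60 and 7.32 on KO-labelled arrays 1 to 5, against 6.94, 5.43, 5.64, 5.72 and 6.06 on Control arrays 1 to 5. As with the brightest Tlcd1 set, KO-labelled arrays 3 and 5 were the highest and Control array 1 led the Control group. Snord47 read 8.38, 7.13, 9.33, 9.40 and 9.82 against 9.28, 7.23, 7.51, 7.30 and 8.74, and KO-labelled array 2 was the lowest of its group, as for Snord70 and the brightest Tlcd1 set. Small nucleolar RNAs did not share one direction. Of 74 such genes tested, 32 averaged higher and 42 lower in the KO-labelled group, with a median difference of -0.09, beside -0.01 over all genes tested. Without Control array 1 and KO-labelled arrays 1 and 2 the split turned, with 40 higher and 34 lower and a median of 0.06, beside -0.02 over all genes tested. Over the 10 arrays their mean profile lay 0.80 log2 units from the brightest Tlcd1 set.

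The second Tlcd1 set had other neighbours. Nearest were the chemokine gene Cxcl14 at 0.0845, the granin gene Scg3 at 0.0854, Shisa4 at 0.0917, S100b at 0.0940 and A330076H08Rik at 0.0953 log2 units, where a flat profile lay at 0.46. S100b, a calcium-binding protein, was among the 20 astrocyte markers, and none of the nearest 20 was a small RNA gene. S100b read 8.03, 8.32, 7.23, 7.13 and 7.12 on KO-labelled arrays 1 to 5, against 7.58, 7.17, 7.05, 7.09 and 6.77 on Control arrays 1 to 5, so KO-labelled arrays 1 and 2 and Control array 1 were its highest as well. The mean of the astrocyte markers lay 0.13 log2 units from the second set and 0.99 from the brightest set. Which bases the probes of either set read was not analysed here, so which set reports the Tlcd1 mRNA was not tested.

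**Figure D3:**
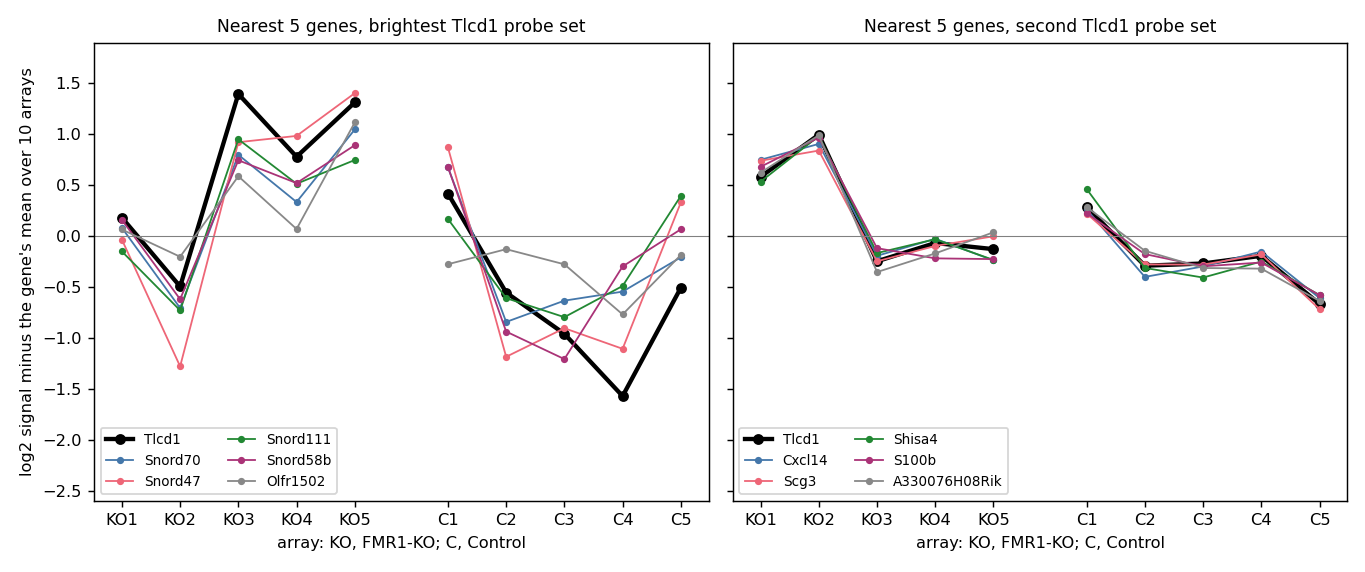
Profiles of the brightest (left) and the second (right) Tlcd1 probe set, in black, with the 5 genes nearest to each, as log2 signal minus the gene's own mean over 10 arrays. KO-labelled arrays are left of Control arrays in each panel. On the left the nearest gene is 0.46 log2 units away, and on the right 0.0845.

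Tlcd2 was dim, and its groups overlapped. Its log2 level was 5.36, 5.09, 5.52, 5.57 and 5.47 on KO-labelled arrays 1 to 5, against 5.34, 5.37, 5.47, 5.81 and 5.55 on Control arrays 1 to 5. Its mean over all arrays lay only 0.14 above the cutoff of 5.32 for dim probe sets. The difference was -0.11 ± 0.12 (SE; 95% interval -0.36 to 0.15), and -0.03 ± 0.12 without the 3 arrays that stood apart. A further probe set, annotated jointly to Mir22hg, Mir22 and Tlcd2, differed by 0.01 ± 0.08 (SE), and by -0.05 ± 0.09 without those arrays.

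Of the ceramide synthases, Cers2, which makes ceramides with very long acyl chains and is needed for myelin, varied least. It read 8.14, 8.30, 8.20, 8.05 and 7.91 on KO-labelled arrays 1 to 5, against 8.02, 8.04, 8.24, 8.22 and 8.31 on Control arrays 1 to 5. The ranges nearly coincided, and the difference was -0.05 ± 0.10 (SE; 95% interval -0.25 to 0.16). Its SD over the Control arrays, 0.13, lay at the 27.2 percentile of all genes tested. A dimmer second probe set of Cers2 differed by 0.04 ± 0.13 (SE), the opposite sign. Without Control array 1 and KO-labelled arrays 1 and 2, the brightest Cers2 set differed by -0.15 ± 0.11 and the second by 0.08 ± 0.17, so the signs stayed opposed.

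Cers4 followed the arrays that stood apart more than the label. It read 7.51, 7.32, 7.04, 6.94 and 7.01 on KO-labelled arrays 1 to 5, against 7.49, 6.99, 6.75, 7.10 and 6.90 on Control arrays 1 to 5. KO-labelled arrays 1 and 2 and Control array 1 were the highest, and they were also the highest in the astrocyte marker mean, at 10.7, 10.8 and 10.4. The difference between the groups was 0.11 ± 0.15 (SE), 0.06 ± 0.11 without those 3 arrays, and -0.003 ± 0.17 without Control arrays 2 and 3. The part of the astrocyte marker level in the Cers4 signal was not tested.

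Cers5 and Cers6 read lower on average on the KO-labelled arrays, within the spread of the arrays. Cers5 read 8.04, 7.95, 7.78, 7.84 and 7.60 on KO-labelled arrays 1 to 5, against 8.02, 7.70, 8.05, 8.22 and 7.83 on Control arrays 1 to 5. KO-labelled array 5 was the lowest and Control array 4 the highest, and the rest overlapped. The difference was -0.12 ± 0.11 (SE; 95% interval -0.37 to 0.13), and -0.21 ± 0.13 without the 3 arrays.

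Cers6 had the widest range of the ceramide synthases, 1.71 log2 units. It read 6.71, 6.21, 7.26, 7.25 and 7.01 on KO-labelled arrays 1 to 5, against 6.51, 6.85, 7.37, 7.29 and 7.92 on Control arrays 1 to 5. Its 3 lowest arrays were KO-labelled array 2, Control array 1 and KO-labelled array 1, the reverse of Cers4. Those arrays also had the lowest microglia marker means, 9.28, 10.0 and 9.85, against 10.4 to 11.0 on the others. The part of the microglia signal in the Cers6 level was not tested. The difference was -0.30 ± 0.26 (SE; 95% interval -0.87 to 0.27) over 10 arrays and -0.18 ± 0.20 without the 3 arrays. The SD of Cers6 over the Control arrays, 0.54, lay at the 98.7 percentile of all genes tested, where the brightest Tlcd1 set, at 0.73, lay at the 99.7 percentile.

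The joint probe set of Gdf1 and Cers1 cannot be given to either gene. It read 8.92, 9.07, 7.85, 7.97 and 7.74 on KO-labelled arrays 1 to 5, against 8.43, 7.92, 7.88, 7.96 and 7.67 on Control arrays 1 to 5. KO-labelled arrays 1 and 2 and Control array 1 were again the highest. The difference of 0.34 ± 0.27 (SE) became -0.01 ± 0.10 without them.

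**Figure D4:**
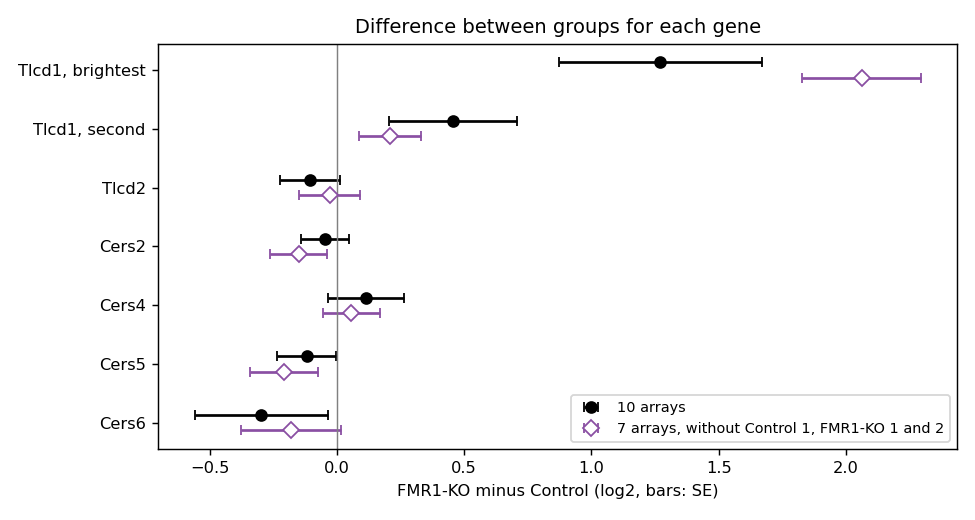
KO-labelled minus Control mean, in log2 units, for each gene, with SE bars, over 10 arrays (filled circles) and over the 7 arrays without Control array 1 and KO-labelled arrays 1 and 2 (open diamonds). The brightest Tlcd1 set lies at 1.27 and 2.06, the second at 0.45 and 0.21, and the other genes between -0.30 and 0.11.

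The pathway around these enzymes showed no gene past the adjusted threshold. Of 101 genes in 7 lists tested, the KO-labelled mean was above the Control mean for 47 and below it for 54, and the median difference was -0.02, beside -0.01 over all genes tested. By limma, 0 were called higher and 0 lower after adjustment over all genes, with adjusted p = 0.654 or more for each. With no adjustment, 3 were higher and 9 lower at p under 0.05, beside 4% higher and 3.53% lower of all genes tested. The count of higher genes was 9 without Control array 1, 5 without KO-labelled array 3 or 4, and 12 without KO-labelled array 5. The count of lower genes was 3 and 4 when Control array 3 or 4 was dropped, and 17 without Control array 1. Without Control array 1 and KO-labelled arrays 1 and 2 together, 2 genes were higher and 17 lower at that level, beside 3.34% and 5.57% of all genes tested. In that fit 33 of 101 had a higher mean, beside 44% of all genes, where 56% were lower. On those 7 arrays 19 of 19 microglia markers still had a lower KO-labelled mean, with a median difference of -0.34, and 17 of 20 astrocyte markers a higher one. The part of either cell type in these counts was not tested.

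Other genes with a TLC domain went both ways. Of 9 tested, 6 averaged higher in the KO-labelled group and 3 lower (median 0.06). Tram1, which helps proteins enter the endoplasmic reticulum, read 9.23 to 9.73 on the KO-labelled arrays and 9.62 to 10.1 on the Control arrays, a difference of -0.48 ± 0.13 (SE). Tlcd4 differed by 0.44 ± 0.22, Tram1l1 by 0.37 ± 0.25 and Tlcd3a by 0.23 ± 0.17. All of the last 3 were highest on KO-labelled arrays 1 and 2, Tlcd4 at 7.35 and 7.78, Tram1l1 at 7.71 and 7.92 and Tlcd3a at 7.53 and 7.79. Without the 3 arrays that stood apart, Tlcd4 differed by 0.22 ± 0.13, Tram1l1 by 0.06 ± 0.18, Tlcd3a by -0.07 ± 0.12 and Tram1 by -0.51 ± 0.13, and the list's median was 0.02.

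Upstream of the synthases, 4 of 9 tested genes for sphingoid base synthesis averaged higher and 5 lower (median -0.02). Sptlc2, a subunit of serine palmitoyltransferase, the first enzyme of the route, differed by -0.27 ± 0.14 (SE). Ormdl1 and Ormdl3, which restrain that enzyme, differed by -0.24 ± 0.12 and -0.22 ± 0.13. Degs1, which turns dihydroceramide into ceramide, differed by -0.23 ± 0.23 and read 6.38 on KO-labelled array 5, against 7.18 to 7.84 on the others of its group. Without KO-labelled array 5 its difference was 0.01, and without Control array 1 and KO-labelled arrays 1 and 2 it was -0.48 ± 0.22. Over those same 7 arrays Ormdl1 differed by -0.39 ± 0.13, Ormdl3 by -0.33 ± 0.14 and Sptlc2 by -0.26 ± 0.11, and the list's median was -0.15, beside -0.02 over all genes tested.

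In the list for ceramide transfer and its conversion, 14 of 18 genes averaged lower in the KO-labelled group and 4 higher (median -0.12). Sgms1, a sphingomyelin synthase, read 7.30 to 7.52 on the KO-labelled arrays and 7.53 to 7.64 on the Control arrays, so the groups did not overlap, as for 0.536% of all genes in that direction. The difference was -0.16 ± 0.07 (SE). Ceramide kinase, Cerk, differed by -0.40 ± 0.21, the galactosyltransferase B3galt4 by -0.27 ± 0.13 and Samd8, a relative of the sphingomyelin synthases, by -0.16 ± 0.09. Over the 7 arrays that did not stand apart, Sgms1 differed by -0.18 ± 0.10, Cerk by -0.26 ± 0.15, B3galt4 by -0.24 ± 0.12 and Samd8 by -0.20 ± 0.12.

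Among 17 tested genes that release or break down ceramide, 8 averaged higher and 9 lower (median -0.10). The lysosomal hexosaminidase subunit Hexa read 9.45 to 10.52 on the KO-labelled arrays and 10.23 to 10.74 on the Control arrays, a difference of -0.56 ± 0.19 (SE). It was lowest on KO-labelled array 2, at 9.45, where the microglia marker mean was lowest as well. The ceramidases Asah1, Acer3 and Acer2 differed by -0.31 ± 0.13, -0.23 ± 0.10 and -0.20 ± 0.08. For Asah1 and Acer3 the lowest Control value, 9.49 and 6.98, was on Control array 1. On KO-labelled arrays 1 and 2, Asah1 read 9.64 and 9.74, and Acer3 read 7.24 and 7.06. The KO-labelled group ran from 9.31 to 9.74 for Asah1 and from 6.98 to 7.24 for Acer3. Without the 3 arrays that stood apart, Asah1 differed by -0.47 ± 0.13 and Acer3 by -0.35 ± 0.10, both larger, while Hexa differed by -0.40 ± 0.14 and Acer2 by -0.14 ± 0.10, both smaller. The part of the microglia signal, lower in the KO-labelled group with 0 of 19 markers higher in mean, was not tested for these genes.

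Of 17 genes for sphingosine 1-phosphate, a secreted lipid signal made from ceramide's backbone, 11 averaged lower and 6 higher (median -0.11). The lipid phosphatase Plpp3 differed by 0.46 ± 0.19 (SE), with 11.6 to 12.5 on the KO-labelled arrays and 11.2 to 11.9 on the Control arrays. The exporter Spns2 differed by -0.37 ± 0.21, and the phosphatases Plpp2 and Sgpp2 by -0.18 ± 0.12 and -0.17 ± 0.09. All 4 were closer to 0 without the 3 arrays, with Plpp3 at 0.26 ± 0.13, Spns2 at -0.21 ± 0.15, Plpp2 at -0.11 ± 0.12 and Sgpp2 at -0.13 ± 0.11.

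Fatty acids for these enzymes come from elongases, transporters and acyl-CoA synthetases. In that list 12 of 19 genes averaged higher and 7 lower, and the median of 0.08 was -0.04 without the 3 arrays. The fatty acid transporter Slc27a1 differed by 0.49 ± 0.23 (SE) and the synthetase Acsl6 by 0.42 ± 0.20, while Acsl4, which prefers arachidonic acid, differed by -0.23 ± 0.08 and Hacd4 by -0.39 ± 0.15. Acsl4 read 7.73 to 7.91 on the KO-labelled arrays and 7.94 to 8.27 on the Control arrays. Its groups did not overlap, as for 0.536% of all genes in that direction. With the 3 arrays that stood apart left out, Slc27a1 differed by 0.38 ± 0.12, Acsl6 by 0.23 ± 0.11, Acsl4 by -0.27 ± 0.11 and Hacd4 by -0.35 ± 0.13.

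The list for desaturation and membrane fluidity, the process TLCD proteins are known for, had 7 of 12 genes averaging higher and 5 lower, and its median of 0.07 was 0.02 without the 3 arrays that stood apart and -0.05 without Control arrays 2 and 3. Fads6, a desaturase-like gene, read 7.12 to 7.39 on the KO-labelled arrays and 6.94 to 7.07 on the Control arrays, without overlap, as for 0.429% of all genes in that direction. Its difference was 0.25 ± 0.08 (SE), and 0.15 ± 0.10 without the 3 arrays. The desaturase Fads2 differed by 0.61 ± 0.22, the acyltransferase Lpcat1 by -0.31 ± 0.13 and the adiponectin receptor Adipor1, a fluidity sensor in human cells and the worm, by -0.28 ± 0.13. On the same 7 arrays Fads2 differed by 0.49 ± 0.12, Lpcat1 by -0.26 ± 0.14 and Adipor1 by -0.39 ± 0.14. The astrocyte markers, 20 of 20 with a higher mean in the KO-labelled group, moved in the direction of Fads2, Slc27a1, Acsl6 and Plpp3, and their part in these values was not tested.

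**Figure D5:**
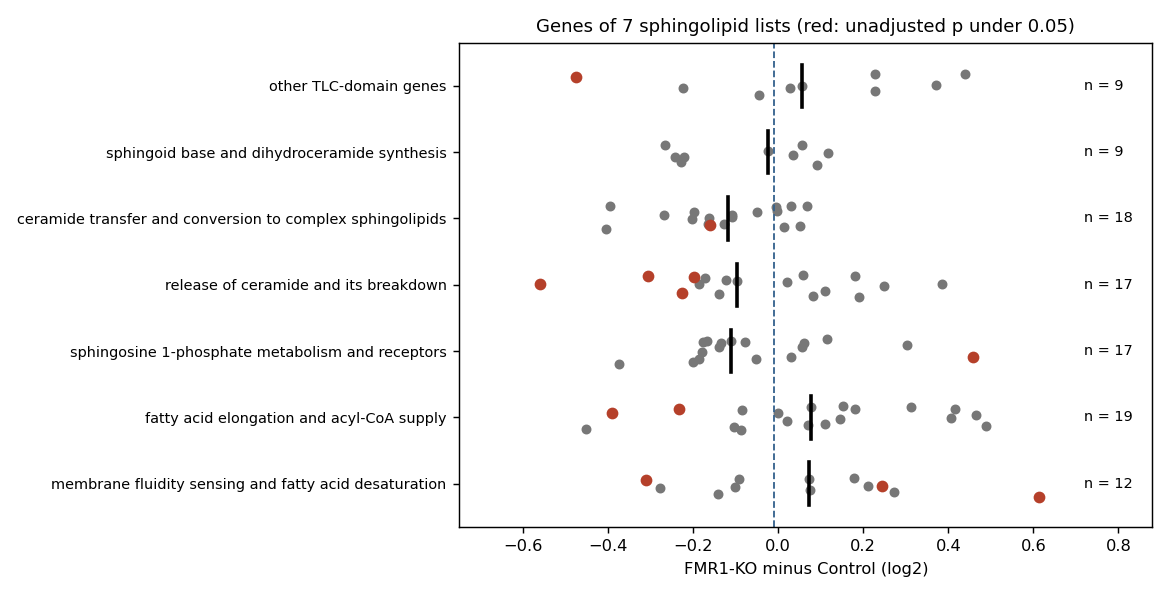
KO-labelled minus Control mean, in log2 units, for the tested genes of each of 7 lists, a point per gene, with list medians as black bars and the median of all genes tested, -0.01, as a dashed line. Red points have an unadjusted p under 0.05 in limma, and no gene passed after adjustment.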

How the data were processed

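RNA of sorted cortical astrocytes was amplified as cDNA and labelled with biotin with Affymetrix whole-transcript kits, per the labels' protocols, and the authors compared the groups in GeneSpring 13.1.1, per the series' design text. The deposited values are log2 signal levels per probe set; the scale was inferred from their range, 4.31 to 13.9. How the authors corrected, normalized and summarised them is not given in the sources. The platform annotation names 1 gene for 23521 of 33793 probe sets, several for 1814 and lists none for 8458. RefSeq (GRCm38.p6) holds the gene ID of 23328 of the first kind, with 0 changed symbols.

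The brightest single-symbol probe set per gene was kept, and a gene was tested if its mean reached the 25th percentile over probe sets (5.32), which left 17712 genes, the 6 measured members included. The comparison was limma's moderated two-sided test (lmFit, eBayes; limma 3.58.1, R 4.3.3), adjusted by Benjamini-Hochberg, with 0.05 as the threshold. Standard errors for probe sets outside this table are from a fit over all 33793. The script was tested on simulated data. Members, lists and alternatives were chosen with earlier results of these data known. Genes named are the members, up to 4 genes per list with the smallest p and the 5 profiles nearest to Tlcd1; that rule leaves small RNA, predicted and olfactory receptor genes unnamed, and those named here were named after their values were seen. The number of arrays limits the precision. Alternatives were other scalings, filters and probe set summaries, trend and robust settings, array weights, a replicate block, and leaving out arrays; the second probe sets of Tlcd1 and Cers2 were added after the data were seen.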

Additional observations from a re-analysis of the deposited data

Results flagged for a closer look

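Hexa, a lysosomal hexosaminidase subunit, read 10.2 on Control array 1, below the other Control arrays at 10.66 to 10.74, and the gap was 0.847 of the group's range. Acer2, an alkaline ceramidase, read 5.69 on Control array 5, against 5.86 to 5.92 on the other Control arrays, a gap of 0.740 of the range. Both exceed the 95% critical value of Dixon's test for 5 samples, 0.71. In all, 2 of 70 groups of 5 arrays were marked so, and chance marks about 5%.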

How the results depend on the processing

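The Tlcd1 difference of 1.27 depended on the probe set and on 3 arrays. It was 0.45 with the other probe set annotated to Tlcd1 alone, and 2.06 without Control array 1 and KO-labelled arrays 1 and 2. With both choices together it was 0.21. The mean of both Tlcd1 sets gave 0.86, and leaving out each array in turn gave 1.04 to 1.55. Cers2 ranged from -0.09 to 0.004, Cers4 from 0.03 to 0.23, Cers5 from -0.18 to -0.06, Cers6 from -0.47 to -0.11 and Tlcd2 from -0.15 to -0.03 when each array was left out. The other settings moved no member's difference by more than its SD between replicates. Without the 3 arrays 1 gene was called higher, against 0 over 10 arrays. Without Control array 5 the count called lower was 1, so over the arrays left out in turn it ran from 0 to 1, and the count called higher stayed at 0. No pathway gene was called in any setting run.

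With the replicate number as a block, the Tlcd1 difference was 1.27 ± 0.38 (SE) and 0 genes were called in either direction, while genes at an unadjusted p under 0.05 came to 1006 higher and 1074 lower, against 709 and 625 without it, and pathway genes to 7 and 11. Deviations of same-numbered arrays correlated at 0.525, -0.0153, 0.191, 0.002 and 0.15 across genes for numbers 1 to 5, and 1 of 5 KO-labelled arrays correlated best with its own number. The labels do not say that a number marks a shared animal or day, and as not every pair of numbers correlated, the fit without the block was kept. Signal over background limits Tlcd2, which left the test with a filter at the median of all probe sets.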
